A study of Homo sapiens with 18 samples.

Results

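The genes described are ADCYAP1, which encodes the neuropeptide PACAP, and 4 genes of receptors with 7 membrane-spanning segments, HTR7, OPRK1, ACKR3 and PTGFR. They are 5 of the 60623 genes in the deposited table, picked by name from genes with large changes in these same libraries, so their own levels and differences are given as a description and without a test. RNA was sequenced from 16D, an established line of castration-resistant prostate cancer cells labelled WT, grown in RPMI with 10% FBS and penicillin and streptomycin. There were 6 groups of 3 libraries, 18 in all. The control group, labelled DMSO (the solvent), received no stated drug, and the other groups had 10 µM enzalutamide, an antiandrogen that blocks the androgen receptor, in the medium for 24, 48, 96 or 144 h or for over 2 months (long-term). All groups are 1 cell line, the labels do not say whether replicates came from separate cultures, and the same 3 control libraries enter every comparison with DMSO. The harvest time of the controls is not stated, so drug and time in culture cannot be told apart.

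G protein-coupled receptors carry signals of peptides, amines and lipids across the cell membrane by switching on heterotrimeric G proteins inside the cell. A receptor that couples to Gs raises cyclic AMP, one that couples to Gi lowers it, and one that couples to Gq activates phospholipase C and releases calcium. PACAP, a relative of the peptide VIP, acts mainly on Gs-coupled receptors and is best known as a transmitter of nerve and neuroendocrine cells. HTR7 is a Gs-coupled serotonin receptor and OPRK1 is the Gi-coupled kappa opioid receptor, whose peptide ligand is dynorphin. ACKR3 (also called CXCR7) takes up the chemokine CXCL12 and recruits arrestin rather than signalling through G proteins, and PTGFR is the Gq-coupled receptor of prostaglandin F2 alpha. Androgen is known to control several receptor and enzyme genes of this kind in prostate cells.

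The sequences around the starts of the 3 genes with the largest long-term differences are shown because these genes were switched between background and clear expression. They are RefSeq windows (GRCh38.p14) of 250 bases before to 50 after a gene start, read 5′ to 3′ on the gene's strand, and ADCYAP1 has 2 annotated starts. Capitals mark 3 short motifs, searched on both strands: AGAACA or TGTTCT, the core repeat of androgen response elements, TGACG or CGTCA, the core of cyclic AMP response elements, and GGGCGG or CCGCCC, a GC box.
ADCYAP1 (first start), chr18:904621-904920, plus strand: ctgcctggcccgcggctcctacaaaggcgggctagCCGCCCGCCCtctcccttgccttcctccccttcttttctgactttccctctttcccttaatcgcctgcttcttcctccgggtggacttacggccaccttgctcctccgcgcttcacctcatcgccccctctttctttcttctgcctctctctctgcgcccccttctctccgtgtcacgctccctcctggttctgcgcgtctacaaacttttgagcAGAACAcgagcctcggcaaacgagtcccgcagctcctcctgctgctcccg
ADCYAP1 (second start), chr18:905116-905415, plus strand: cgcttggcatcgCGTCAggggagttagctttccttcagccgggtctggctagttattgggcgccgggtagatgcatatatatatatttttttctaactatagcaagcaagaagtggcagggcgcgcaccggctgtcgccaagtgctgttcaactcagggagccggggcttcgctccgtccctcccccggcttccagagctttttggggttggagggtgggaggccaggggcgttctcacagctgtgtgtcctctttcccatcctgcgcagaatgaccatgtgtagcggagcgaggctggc
HTR7, chr10:90857990-90858289, minus strand: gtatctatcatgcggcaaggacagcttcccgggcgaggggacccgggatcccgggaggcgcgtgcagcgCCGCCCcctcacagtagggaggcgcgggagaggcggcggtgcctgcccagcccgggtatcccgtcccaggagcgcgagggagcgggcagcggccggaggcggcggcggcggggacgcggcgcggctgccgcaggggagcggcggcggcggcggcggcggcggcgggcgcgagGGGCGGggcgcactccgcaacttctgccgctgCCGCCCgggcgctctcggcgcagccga
PTGFR, chr1:78490724-78491023, plus strand: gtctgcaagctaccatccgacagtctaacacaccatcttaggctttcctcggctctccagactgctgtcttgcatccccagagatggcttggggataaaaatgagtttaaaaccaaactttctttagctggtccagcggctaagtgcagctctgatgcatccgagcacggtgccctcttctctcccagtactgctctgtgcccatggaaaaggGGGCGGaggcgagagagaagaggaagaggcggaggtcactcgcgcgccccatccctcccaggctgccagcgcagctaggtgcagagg
The first ADCYAP1 window holds AGAACA at its start site and a pair of overlapping CCGCCC matches, the second holds CGTCA at position -238 from the start, the HTR7 window holds 3 GC boxes and the PTGFR window holds 1. These letters are common: of 35116 promoter windows of the same length, 14.8% hold the androgen core, 24.6% the cyclic AMP core and 45% the GC box, and the full cyclic AMP element TGACGTCA, held by 1.85%, is in none of the 4. The windows differ in base composition. HTR7 has 80.3% G and C and 50 CpG dinucleotides, more than in 98.7% of promoter windows, whereas PTGFR has 12 CpG, and the ADCYAP1 windows have 21 and 18, against a median of 14. The PTGFR window lies inside the span of the gene in GENCODE release 29, not at its outer start. A match of letters is a description and shows no binding.

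Values are TPM, a relative transcript abundance scaled for gene length and to a fixed sum per library, and levels are given as mean ± SD of 3 libraries. Differences are log2 fold changes ± standard error (SE) in units of log2(TPM + 1), which understates changes of low genes, and signed values without a unit are such differences. A gene is called changed at a Benjamini-Hochberg adjusted p under 0.05 in limma's moderated test over 16169 genes that had at least 1 TPM in at least 3 libraries. TPM keep no read totals, so depth and counting error are unknown. The labels held against known targets: KLK3, which encodes PSA and is driven by the androgen receptor, was at 1021 ± 28.0 TPM in DMSO, 34.2 ± 1.95 TPM at 144 h and 142 ± 12.4 TPM long-term, and all 9 prostate luminal markers were present in every group. Leukocyte and basal markers were all under 1 TPM. Of 7 fibroblast markers only COL1A1 reached 1 TPM (up to 15.6 TPM in DMSO, 38.4 TPM at 144 h and 8.39 TPM long-term, with a summed level of the list of 14.4 to 16.1, 22.7 to 39.1 and 7.28 to 9.20 TPM), and of 4 endothelial markers only VWF did (up to 2.66 TPM). The part of these in the results was not tested. Of 8 neuroendocrine markers only SYP and DLL3 reached 1 TPM, with a summed level of 6.89 to 11.1 TPM over all libraries and 9.43 to 10.9 TPM long-term. Libraries within a group correlated at 0.983 to 0.990. The share of TPM from 37 mitochondrially encoded genes was 22.0% to 29.5% long-term and 15.1% to 24.0% in the other libraries, and its part in the long-term results was not tested. With TPM rescaled without those genes the long-term differences were 6.26 for ADCYAP1, 5.45 for HTR7, 1.92 for OPRK1, -1.13 for ACKR3 and -5.45 for PTGFR, in the same directions as below.

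ADCYAP1, the only ligand of the 5, was switched on in the long-term group. The gene (ENSG00000141433, chr18:904943-912172, plus strand, GRCh38) was at 0.03, 0 and 0.05 TPM in the DMSO libraries and at 0 to 0.05 TPM in all 12 libraries of 24 to 144 h. The long-term libraries had 49.33, 68.05 and 55.98 TPM, a mean of 57.8 ± 9.49 TPM. No long-term library came near any other, and all 15 other libraries were at 0.05 TPM or less. The difference from DMSO was 5.83 ± 0.11, the eighth largest in size among all tested genes, and a pseudocount of 0.1 in place of 1 gave 8.84. In the long-term group 2605 tested genes had a higher mean. ADCYAP1 and HTR7 passed the filter on low values only through the long-term group, so a difference there was built into their being tested. The deposited table types the ADCYAP1 row as a retained intron, while GENCODE types the gene as protein coding. AP000894.2 (ENSG00000265179), a noncoding gene on the opposite strand that overlaps the start of ADCYAP1, showed the same pattern at a far lower level, at 0 in all 15 other libraries and 1.97, 1.55 and 1.66 TPM long-term. The library kit keeps strand, but whether counting used it is not given in the sources used here, so reads of the pair cannot be told apart.

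HTR7 (ENSG00000148680, chr10:90740823-90857698, minus strand) followed much the same course. It had 0.09, 0.11 and 0.05 TPM in DMSO and between 0.08 and 0.23 TPM in every library of 24 to 144 h. Long-term it had 30.6, 39.47 and 34.79 TPM, a mean of 35.0 ± 4.44 TPM and a difference of 5.05 ± 0.11 from DMSO. The groups of 24 to 144 h overlapped one another, and the long-term group stood alone far above them. All 48 h and 96 h libraries lay above all DMSO libraries, though at 0.23 TPM or less. Across the 18 libraries the log2 levels of ADCYAP1 and HTR7 had a Pearson correlation of 0.999 but a Spearman correlation of 0.314, since the first value rests on the contrast of the 3 long-term libraries with 15 libraries near 0. In RNA of whole cultures, more cells with a transcript and more transcript per cell cannot be told apart.

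**Figure D1:**
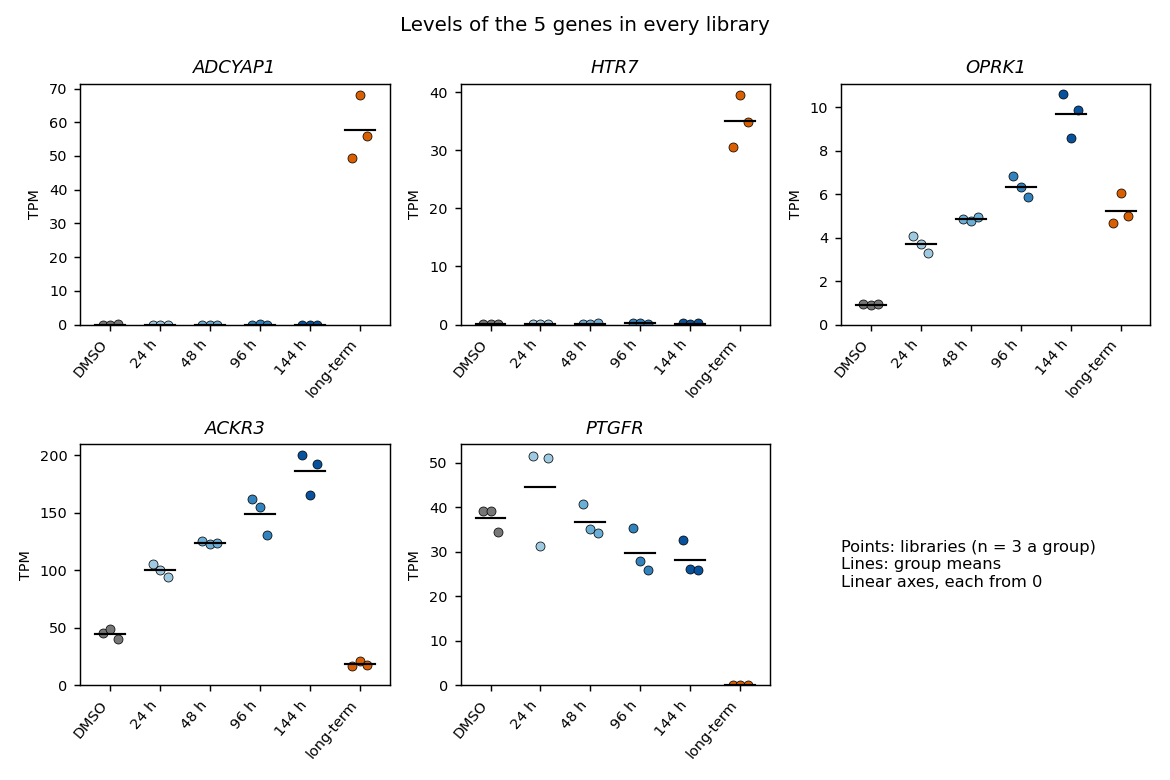
Level (TPM, linear axes from 0) of the 5 genes in each library, with 3 libraries per group (points) and the group mean (lines). ADCYAP1 and HTR7 are near 0 in all but the long-term libraries, OPRK1 and ACKR3 climb from DMSO to 144 h, and PTGFR is near 0 only long-term.

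OPRK1 (ENSG00000082556, chr8:53225716-53251697, minus strand) climbed with each time step and was lower again long-term. It started at 0.95, 0.88 and 0.93 TPM in DMSO. At 24 h it had 4.09, 3.73 and 3.32 TPM, at 48 h 4.88, 4.76 and 4.95 TPM, and at 96 h 6.84, 6.32 and 5.86 TPM. At 144 h it had 10.61, 8.61 and 9.88 TPM, 10.5 times the DMSO mean. These 5 groups did not overlap at any step. Long-term it had 4.66, 6.08 and 4.98 TPM (5.24 ± 0.745 TPM, 5.70 times DMSO), which overlapped both the 48 h and the 96 h libraries and lay below all 144 h libraries. The log2 differences from DMSO were 1.29, 1.61, 1.93 and 2.47 at 24, 48, 96 and 144 h and 1.69 long-term, each ± 0.10.

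ACKR3 (ENSG00000144476, chr2:236567787-236582358, plus strand) was the most abundant of the 5 in DMSO and up to 144 h, and the one whose direction turned. It had 45.29, 49.22 and 40.12 TPM in DMSO. It had 105.77, 99.98 and 94.43 TPM at 24 h and 125.18, 123.27 and 123.43 TPM at 48 h. It reached 162.18, 155.05 and 131.12 TPM at 96 h and 200.39, 165.71 and 192.68 TPM at 144 h, 4.15 times DMSO. Long-term it had 16.69, 21.01 and 17.31 TPM, below every other library and 0.409 times the DMSO mean, so that the 144 h mean was 10.2 times the long-term mean. None of the 6 groups overlapped another. The differences from DMSO were 1.14, 1.45, 1.71 and 2.03 from 24 to 144 h and -1.25 long-term, each ± 0.10. OPRK1 and ACKR3 thus rose side by side to 144 h, but over all 18 libraries their correlation was only 0.466, since OPRK1 stayed above its DMSO level long-term.

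PTGFR (ENSG00000122420, chr1:78303884-78539749, plus strand) was nearly lost in the long-term group after modest movement before. It had 39.02, 39.08 and 34.5 TPM in DMSO and 51.51, 31.28 and 51.01 TPM at 24 h, where replicate 2 lay below the other libraries of its group. It had 40.76, 35.05 and 34.14 TPM at 48 h, 35.35, 28.02 and 25.98 TPM at 96 h and 32.57, 26.03 and 25.91 TPM at 144 h. Up to 144 h neighbouring levels overlapped, though all 144 h libraries lay below all DMSO libraries (difference -0.41 ± 0.16). Long-term it had 0.11, 0.04 and 0.04 TPM, and the difference from DMSO was -5.18 ± 0.16. Against 144 h the long-term difference was -4.77 for PTGFR and -3.28 for ACKR3, while it was 5.86 for ADCYAP1, 4.93 for HTR7 and -0.78 for OPRK1.

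**Figure D2:**
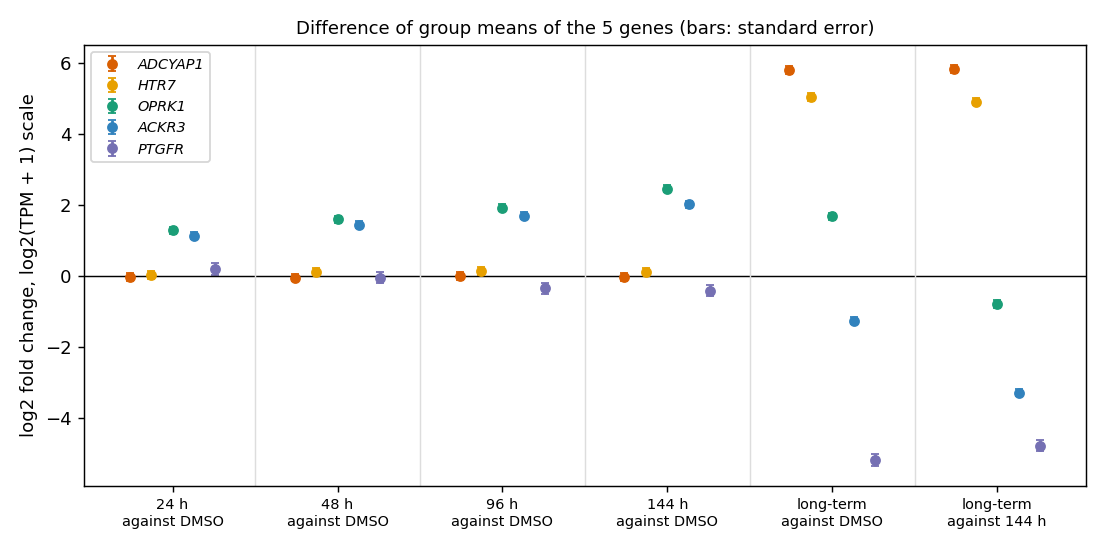
Difference of group means (log2 fold change on the log2(TPM + 1) scale, n = 3 libraries per group) of the 5 genes in 6 comparisons, with bars for ± 1 standard error. To 144 h only OPRK1 and ACKR3 stand beyond 1, and long-term ADCYAP1 and HTR7 lie above 5 and PTGFR below -5.

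For scale, 4.59% of tested genes were called higher and 3.58% lower at 24 h, 9.38% and 8.08% at 48 h, 16.5% and 12.7% at 96 h, and 26.6% and 16.4% at 144 h. Long-term, 18.1% were called higher and 33.9% lower than in DMSO, and 9.23% higher and 36.8% lower than at 144 h. Of the 5 genes, OPRK1 and ACKR3 passed the same threshold as higher in each of the 4 timed groups, PTGFR as lower at 144 h, and all 5 passed long-term, 3 higher and 2 lower. Because these contrasts chose the genes, nothing is read from those counts. The median difference over all tested genes was -0.12 long-term against DMSO and -0.19 long-term against 144 h, and -0.01 and 0.01 after median-of-ratios scaling. That scaling kept the direction of the 5 genes long-term but moved the split over all genes. Of 16145 genes it called 3602 higher and 4098 lower at 144 h (4294 and 2647 of 16169 unscaled), 4106 and 4479 long-term against DMSO (2931 and 5482) and 3675 and 3352 against 144 h (1493 and 5957). Splits of partner lists under another scaling are given beside the unscaled ones where the share of higher among calls moved by over 10 percentage points.

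The partners of the 5 genes were read from 14 lists of ligands, receptors, G proteins and downstream genes. Of 590 genes looked up, 585 were in the table and 211 passed the filter. Of these 211, 20 were called higher and 15 lower at 24 h, 48 and 26 at 48 h, 62 and 41 at 96 h, and 85 and 44 at 144 h (79 and 61 of 212 under median-of-ratios scaling). Long-term, 61 were higher and 74 lower than DMSO (82 and 64 of 212 under median-of-ratios scaling, 83 and 66 of 224 without mitochondrial genes). Against 144 h, 33 were higher and 91 lower (65 and 62 of 212 under median-of-ratios scaling). Of the 211, 12 passed the filter only through the long-term group, and all 12 are among the 61 called higher there. A further 4 passed only through 144 h, 3 only through 24 h and 3 only through DMSO. All of these stay among the tested genes here and in the list splits below. A difference in comparisons with that group was built into their being tested, so those described below are given there without a p. The partner lists were chosen with earlier results of these libraries known, and a share called is read only beside the share of all genes given above. The median difference of the 211 genes was 0.14 at 144 h and -0.05 long-term, and that of all tested genes was 0.07 and -0.12.

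PACAP has 3 receptors, and the one most specific to it was near 0. ADCYAP1R1 did not exceed 0.01 TPM in any library. VIPR1, which binds VIP and PACAP, fell from 26.9 ± 1.17 TPM in DMSO to 18.3 ± 1.70 TPM at 144 h (-0.53 ± 0.10, limma adjusted p = 0.000489) and 14.6 ± 1.75 TPM long-term (-0.84 ± 0.10, adjusted p = 3.26e-06). VIPR2, the other shared receptor, went from 0.137 ± 0.0416 TPM to 1.42 ± 0.117 TPM at 144 h (1.09 ± 0.11, with no p because it passed the filter only through that group) and was at 0.97 ± 0.11 TPM long-term (0.79 ± 0.11, adjusted p = 1.2e-05). The VIPR2 value at 144 h was built in by the filter, so opposite directions are read at 96 h, when ADCYAP1 was near 0. There VIPR1 was lower than in DMSO (-0.55 ± 0.10, adjusted p = 0.000639). VIPR2 was higher (0.62 ± 0.11, adjusted p = 0.000357), though only at 0.753 ± 0.126 TPM. Long-term VIPR1 was still the higher of VIPR1 and VIPR2 in TPM. The calls of VIPR1 and VIPR2 between long-term and 144 h were lost under several other settings and are not used. In this family of 4 tested genes, 2 were higher and 1 lower at 144 h (2 and 2 under median-of-ratios scaling) and 1 was higher and 2 lower long-term. GCG, the gene of glucagon and related peptides, rose from 0.327 ± 0.18 to 3.3 ± 0.461 TPM at 144 h (1.70 ± 0.15, adjusted p = 1.23e-07), and RAMP1, a receptor partner protein, fell from 123 ± 1.31 to 83.5 ± 8.05 TPM long-term (-0.56 ± 0.08, adjusted p = 1.82e-05).

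Of 4 tested genes of peptide hormone maturation, 3 were higher and none lower in the long-term group, and CPE and PAM encode enzymes. CPE, the carboxypeptidase that trims prohormones, was already called higher at 48 h (0.43 ± 0.11, adjusted p = 0.0103), when ADCYAP1 was near 0. Without DMSO replicate 1 the adjusted p of that call was 0.0503. CPE rose from 29.8 ± 2.26 TPM in DMSO to 68.7 ± 7.03 TPM at 144 h and 88.3 ± 11.7 TPM long-term (1.53 ± 0.11, adjusted p = 5.36e-09). PAM, which adds the terminal amide that PACAP carries, rose from 2.29 ± 0.409 to 10.5 ± 0.892 TPM (1.81 ± 0.14, adjusted p = 1.43e-08). PCSK1N, an inhibitor of a prohormone convertase, was called higher (1.39 ± 0.43, adjusted p = 0.0118), but its p was 0.0611 without DMSO replicate 1 and 0.0526 without long-term replicate 2. At 144 h, 3 of the 4 were higher and 1, VGF, was lower, named after its values were seen. Among 11 tested genes of other peptide ligands, 2 were higher and 4 lower at 144 h and 4 higher and 4 lower long-term (5 and 2 under median-of-ratios scaling). EDN2, an endothelin, rose from 1.78 ± 0.341 to 12.7 ± 0.350 TPM long-term (2.31 ± 0.11, adjusted p = 4.31e-11). PTHLH, the parathyroid hormone-related peptide, went from 0.01 to 3.27 ± 0.581 TPM, and NTS, the neurotensin gene, from a listed 0 in all DMSO libraries to 2.35 ± 0.579 TPM, both tested only because the long-term group was high. NPPC, a natriuretic peptide gene that passed the filter only through DMSO, went from 2.33 ± 0.922 to 0.0833 ± 0.0289 TPM. KISS1, named after its values were seen, also passed only through the long-term group (0.163 TPM in DMSO, 1.73 TPM long-term). The 4 called higher long-term were EDN2, PTHLH, NTS and KISS1, so all but EDN2 were built in by the filter. The same holds for NPPC among the 4 called lower. GAL, the galanin gene, fell by 0.87 at 144 h (adjusted p = 1.19e-06) and was at 75.8 ± 6.84 TPM long-term beside 68.8 ± 4.58 TPM in DMSO (adjusted p = 0.227).

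Around HTR7, the genes that make and break down serotonin moved by large amounts. DDC, the decarboxylase that makes serotonin and dopamine from their precursors, rose steadily from 19.2 ± 1.39 TPM to 305 ± 16.8 TPM at 144 h (3.92 ± 0.10, adjusted p = 4.16e-14). Long-term it was back at 21.5 ± 3.02 TPM, whose difference from DMSO did not pass the test (0.15 ± 0.10, adjusted p = 0.237) and lay far below 144 h (-3.78 ± 0.10). MAOA, the oxidase that degrades serotonin, fell at once to 141 ± 3.12 TPM at 24 h from 437 ± 34.3 TPM, held near 148 ± 11 TPM at 144 h and fell further to 14.9 ± 2.74 TPM long-term (-4.79 ± 0.10, adjusted p = 1.37e-15). TPH1, which makes the serotonin precursor, did not exceed 0.24 TPM. The third tested gene of the list, HTR6, another Gs-coupled serotonin receptor named after its values were seen, was higher at 144 h and long-term, from 0.477 to 1.27 and 1.5 TPM (long-term 0.76 ± 0.11, adjusted p = 1.76e-05). Thus 2 of 3 were higher and 1 lower at 144 h, and 1 and 1 long-term (2 and 1 under median-of-ratios scaling).

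Of the fixed partners of OPRK1 and ACKR3, most were near background in these cells. PDYN, PENK and POMC, the precursors of the opioid peptides, did not exceed 0.21 TPM in any library. The single tested gene of the opioid list, OPRL1, the nociceptin receptor, had 0.287 TPM in DMSO, 1.28 TPM at 144 h, the group through which it passed the filter, and 0.607 TPM long-term (0.31 ± 0.12 against DMSO, adjusted p = 0.0430). CXCL12 and CXCL11, which ACKR3 binds, and CXCR3, the signalling receptor of CXCL11, did not exceed 0.1 TPM. CXCR4, the signalling receptor of CXCL12, had between 0.18 and 0.66 TPM, with the highest group mean long-term (0.617 ± 0.0404 TPM). MIF, a cytokine that also binds ACKR3, was abundant, with a mean of 1903 TPM in DMSO, 1570 TPM at 144 h and 1841 TPM long-term. In that list neither of the 2 tested genes, MIF and ADM, was called long-term at an adjusted p of 0.756 and 0.0556, and MIF was called lower at 144 h (-0.29 ± 0.11, adjusted p = 0.0457), a call that other settings ended.

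For PTGFR, the enzymes that start prostaglandin synthesis were not detected above low levels: PTGS1 did not exceed 0.19 TPM and PTGS2 0.09 TPM. HPGD, which inactivates prostaglandins, did not exceed 0.06 TPM and AKR1B1, a prostaglandin F synthase, 0.37 TPM. PRXL2B, another prostaglandin F synthase, named after its values were seen, was expressed at 45.2 TPM in DMSO and was higher at 144 h (57.7 TPM, 0.35 ± 0.08, adjusted p = 0.00153) and long-term (61.3 TPM, 0.43 ± 0.08, adjusted p = 0.000163). Of 9 tested genes in the list, 3 were higher and 5 lower at 144 h and 2 higher and 5 lower long-term (4 and 4 under median-of-ratios scaling and without mitochondrial genes). ABCC4, a transporter that exports prostaglandins and cyclic AMP, fell from 38.2 ± 5.06 to 10.2 ± 1.32 TPM at 144 h and 5.55 ± 1.11 TPM long-term (-2.59 ± 0.13, adjusted p = 7.34e-11). PTGER4, a Gs-coupled receptor of prostaglandin E2, fell from 3.27 ± 0.0794 to 0.340 ± 0.120 TPM long-term (-1.68 ± 0.18, adjusted p = 6.49e-07). AKR1C3, which reduces prostaglandins and androgens, went from 0.1 ± 0.05 to 4.86 ± 0.700 TPM long-term, the group through which alone it passed the filter. AKR1C3 has near-identical relatives, so reads could have been shared with them in counting.

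**Figure D3:**
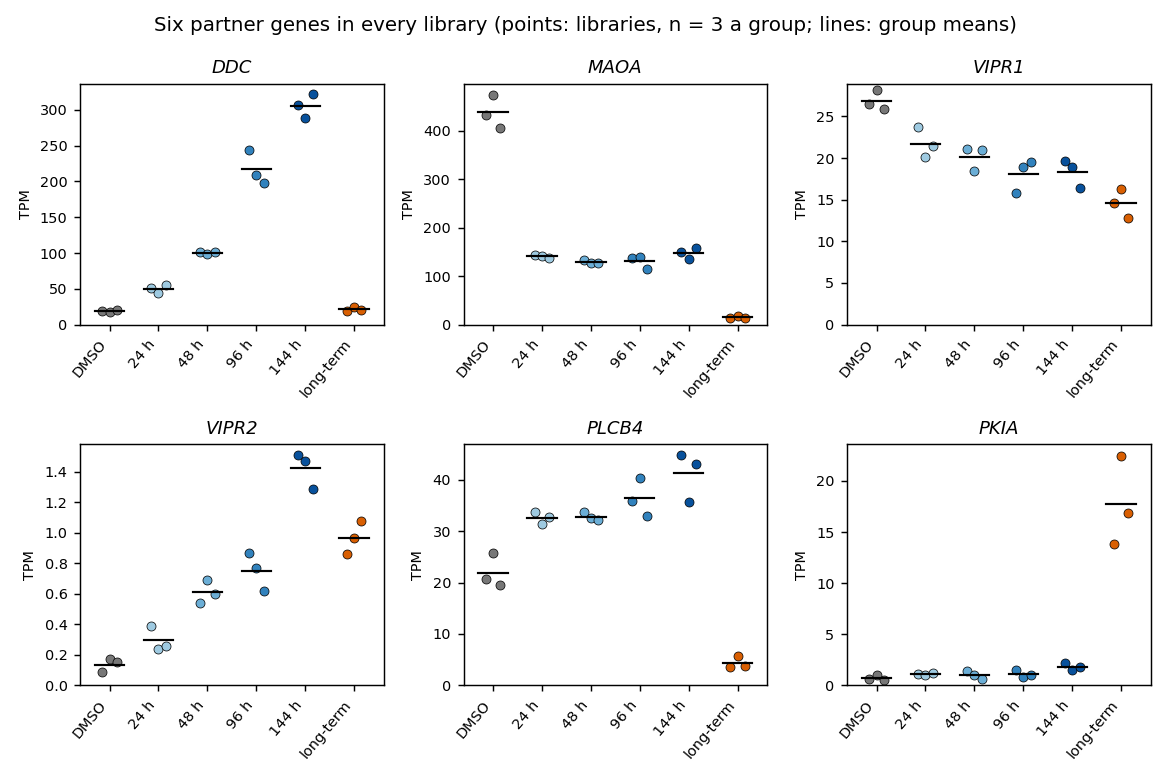
Level (TPM, linear axes from 0) of DDC, MAOA, VIPR1, VIPR2, PLCB4 and PKIA in each library (points, n = 3 per group) with group means (lines). DDC peaks at 305 TPM at 144 h and is back near DMSO long-term, MAOA falls in 2 steps, and PKIA is highest long-term at 17.8 TPM.

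Downstream of the receptors, subunits of the G proteins changed in both directions. Of 22 tested, 11 were higher and 3 lower at 144 h and 7 higher and 6 lower long-term (9 and 5 under median-of-ratios scaling, 10 and 5 of 25 without mitochondrial genes). GNAI1, an inhibitory alpha subunit of the kind OPRK1 uses, fell from 21.6 ± 2.43 TPM to 8.25 ± 1.87 TPM at 144 h and 2.60 ± 0.838 TPM long-term (-2.67 ± 0.17, adjusted p = 2.32e-09). GNAI2, another inhibitory alpha subunit and the more abundant in DMSO, went the other way at 96 h. It rose from 65.4 ± 1.90 to 103 ± 6.63 TPM (0.64 ± 0.06, adjusted p = 5.58e-07). GNAO1, a neuronal relative of GNAI1, rose from 0.707 ± 0.170 to 5.6 ± 1.2 TPM long-term (1.94 ± 0.15, adjusted p = 2.24e-08). The gamma subunit gene GNG4 rose by 1.38 ± 0.10 at 144 h (adjusted p = 2.27e-08) and by 1.47 ± 0.10 long-term (adjusted p = 4.74e-09).

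Of 11 tested genes that make or degrade cyclic AMP, 5 were higher and 2 lower at 144 h (4 and 3 under median-of-ratios scaling), and 3 were higher and 4 lower long-term. The phosphodiesterase genes PDE3B and PDE4D, whose products degrade cyclic AMP, fell by 1.68 ± 0.12 and 1.58 ± 0.12 long-term (adjusted p = 7.11e-09 and 1.2e-08). The cyclase genes ADCY7 and ADCY1, whose products make it, rose by 1.06 ± 0.13 and 0.75 ± 0.09 (adjusted p = 4.44e-06 and 5.64e-06). The other called genes, named after their values were seen, went both ways. The phosphodiesterase gene PDE10A was higher (0.60 ± 0.12, adjusted p = 0.000697) and PDE7A lower (-0.38 ± 0.09, adjusted p = 0.00209). The cyclase gene ADCY9 was lower (-0.49 ± 0.15, adjusted p = 0.0135). At 144 h ADCY9 was higher (0.51 ± 0.15, adjusted p = 0.0130), a call lost without 144 h replicate 1 (adjusted p = 0.0825). Of 22 tested effector genes, 11 were higher and 2 lower at 144 h and 5 higher and 7 lower long-term (8 and 7 under median-of-ratios scaling). PKIA, an inhibitor of the cyclic AMP-dependent kinase, rose from 0.747 ± 0.283 to 17.8 ± 4.36 TPM long-term (3.41 ± 0.18, adjusted p = 1.64e-10), while its relative PKIB fell from 3.05 ± 0.356 to 0.457 ± 0.231 TPM (-1.48 ± 0.15, adjusted p = 5.7e-07). The exchange factors RAPGEF3 and RAPGEF4, which cyclic AMP activates directly, also parted, with -1.60 ± 0.16 and 1.14 ± 0.17 (adjusted p = 2.82e-07 and 2.78e-05). At 24 h PKIB was higher than in DMSO, at 6.10 ± 0.422 TPM (0.81 ± 0.15, adjusted p = 0.00253).

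Genes known to respond to cyclic AMP did not move one way. Of 13 tested, 1 was higher and 6 lower at 144 h (2 and 6 of 14 without mitochondrial genes), and 4 were higher and 7 lower long-term. CGA, the alpha subunit of glycoprotein hormones and a classical cyclic AMP target, was listed at 0 in all DMSO libraries and had 5.70 ± 0.457 TPM long-term, the group through which alone it passed the filter. NR4A2, named after its values were seen, also passed only through that group. The places of CGA and NR4A2 among the 4 called higher long-term were thus built in. BTG2 rose from 14.5 ± 1.41 to 67.6 ± 6.04 TPM (2.14 ± 0.10, adjusted p = 3.6e-11). FOS, an immediate early gene, fell from 90.3 ± 7.97 to 32.3 ± 6.29 TPM at 144 h and 14.8 ± 2.94 TPM long-term (-2.55 ± 0.15, adjusted p = 6.51e-10), and its relative FOSB fell by 1.88 ± 0.16 (adjusted p = 7.66e-08).

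On the phospholipase C and calcium branch, which Gq-coupled receptors such as PTGFR use, 7 of 19 tested genes were higher and 5 lower at 144 h, and 6 were higher and 7 lower long-term. PLCB4, a phospholipase C that Gq activates, rose from 21.9 ± 3.27 to 41.2 ± 4.85 TPM at 144 h (0.88 ± 0.13, adjusted p = 4.72e-05) and fell to 4.33 ± 1.13 TPM long-term (-2.12 ± 0.13 against DMSO, adjusted p = 1.18e-09). PRKCH, a protein kinase C, fell from 18.1 ± 1.86 to 1.45 ± 0.186 TPM long-term (-2.96 ± 0.11, adjusted p = 1.77e-12), and ITPR1, a calcium release channel, rose by 0.91 ± 0.14 (adjusted p = 5.51e-05). Among 21 genes of receptor desensitization, 8 were higher and 4 lower at 144 h (5 and 7 under median-of-ratios scaling) and 6 higher and 10 lower long-term (6 and 6). RGS4, which speeds the switching off of Gi and Gq, went from 0.333 ± 0.169 to 3.57 ± 0.348 TPM long-term, the group through which alone it was tested, and RGS2, which acts on Gq, fell from 7.31 ± 0.179 to 2.12 ± 0.0985 TPM (-1.41 ± 0.07, adjusted p = 9.32e-11).

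**Figure D4:**
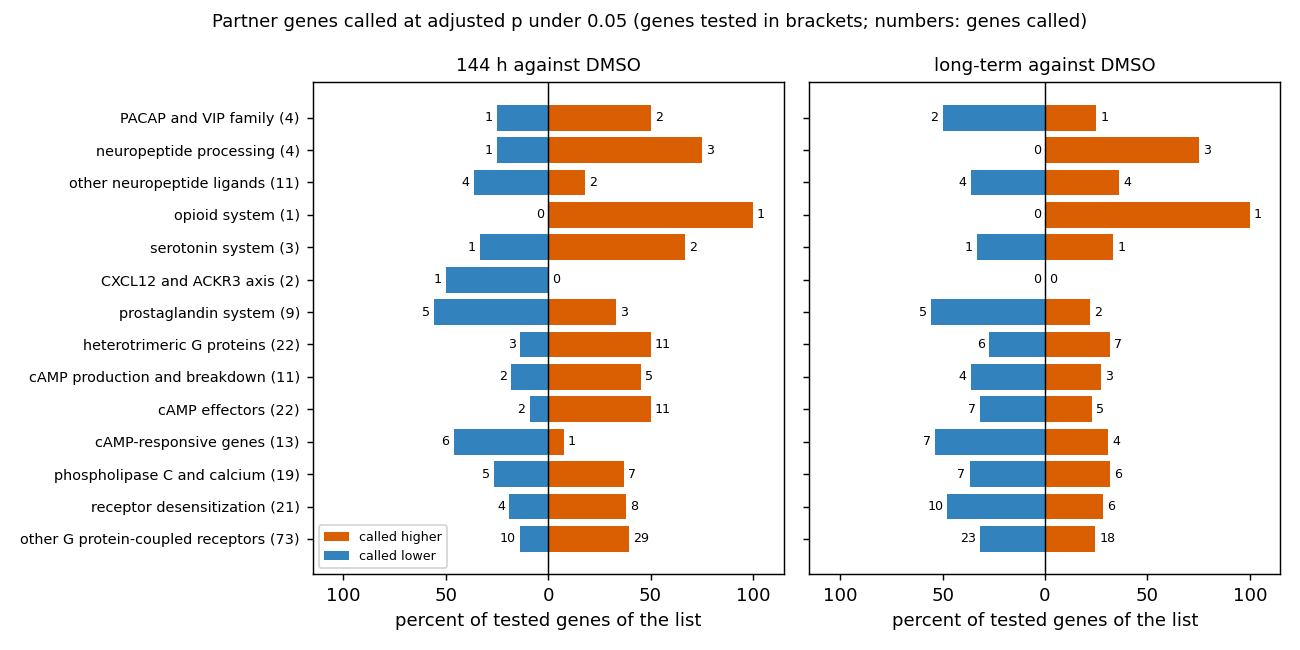
Share (percent) of the tested genes of each partner list that were called higher (right) or lower (left) at 144 h and long-term against DMSO, n = 3 libraries per group, with the number of genes at each bar. Cyclic AMP effectors have 11 higher and 2 lower at 144 h and 5 and 7 long-term (8 and 7 under median-of-ratios scaling). Of all tested genes, 26.6% were called higher and 16.4% lower at 144 h, and 18.1% and 33.9% long-term.

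Other receptor genes also changed by large amounts. Of 319 other G protein-coupled receptor genes in the table, 242 were under 1 TPM in every library and 73 were tested. At 144 h, 29 were higher and 10 lower (30 and 17 of 74 under median-of-ratios scaling), and long-term 18 were higher and 23 lower (29 and 21 of 74, and 29 and 22 of 77 without mitochondrial genes). ADGRL3, the adhesion receptor latrophilin 3, went from 0.08 ± 0.07 to 45.7 ± 9.38 TPM long-term. GRM7, a metabotropic glutamate receptor, went from 0.0367 ± 0.0289 to 7.36 ± 1.75 TPM, and both were tested only because the long-term group was high. LPAR3, a receptor of lysophosphatidic acid, fell from 45.9 ± 3.55 to 16.3 ± 3.00 TPM at 144 h and 2.71 ± 0.156 TPM long-term (-3.66 ± 0.11, adjusted p = 8.85e-14), and NPY1R, a neuropeptide Y receptor, fell from 7.08 ± 0.314 to 0.297 ± 0.101 TPM (-2.64 ± 0.11, adjusted p = 4.31e-12). At 144 h the largest increases were in ADRA2A, a Gi-coupled adrenergic receptor (0.777 ± 0.150 to 12 ± 1.85 TPM, 2.87 ± 0.13, adjusted p = 6.13e-11) and GPER1, a membrane estrogen receptor (0.613 ± 0.191 to 5.95 ± 0.771 TPM, 2.11 ± 0.15, adjusted p = 1.28e-08), among receptors with groups that did not overlap and a mean of at least 2 TPM.

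Genes with courses most like those of the 5 were ranked by Pearson correlation of log2(TPM + 1) over the 18 libraries, which share groups, among genes with a group mean of at least 5 TPM. For ADCYAP1 these were FAM135B, HTR7, PCDH19 and SMOC1 and for HTR7 ROBO2, PLPPR1, SMOC1 and FAM135B, all near 0 up to 144 h. ROBO2, an axon guidance receptor, had 46.2 TPM long-term and PLPPR1, a brain membrane protein, 92.6 TPM. The OPRK1 course was closest to CNTN5, a neuronal adhesion gene (r = 0.978, 1.58 TPM in DMSO, 69.4 TPM at 144 h and 21.6 TPM long-term), then PATZ1, CBLN2 and SEMA6A. The ACKR3 course was closest to EXPH5 (r = 0.993, 2.28, 7.59 and 0.747 TPM in the same groups), then NEU1, TMEM38B and PLEKHD1. The PTGFR course was closest to UGT2B11, an androgen glucuronidation gene (r = 0.994, 102, 48.6 and 0.117 TPM), then GUCY1A1, RPS6KA3 and DHRS2. UGT2B11 has near-identical relatives that can share its reads.

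Genes next to the 5 on the chromosome are given as a description. The 5 were picked for large changes, so smaller differences in their neighbours are not a result. Long-term, OPRK1 (1.69) and ACKR3 (-1.25) were smaller in size than the largest neighbour difference (-1.95). For each of the 5 genes the 3 nearest tested protein-coding genes on each side were taken, 30 in all. Long-term, 5 of the 30 were higher and 14 lower (6 and 12 under median-of-ratios scaling), with differences between -1.95 and 1.67, whereas 18.1% of all tested genes were higher and 33.9% lower. Of the 6 neighbours of ADCYAP1, none was higher and 4 were lower, the nearest being YES1, a kinase gene at 92.4 kb (-1.31 ± 0.18, adjusted p = 1.39e-05). RPP30, at 14 kb from HTR7, had a difference of 0.06 ± 0.06 (adjusted p = 0.431). Of the 6 neighbours of PTGFR, 1 was higher and 4 lower, and IFI44, an interferon-induced gene at 110 kb, fell from 3.62 to 0.363 TPM (-1.75 ± 0.22, adjusted p = 4.25e-06). Near OPRK1, which was higher, 3 of 6 were higher and 2 lower, PCMTD1 at 1327 kb by 1.67 ± 0.12 (adjusted p = 5.04e-09), while SNAI2, a transcription factor gene at 4304 kb, was lower (-1.95 ± 0.11, adjusted p = 5.76e-10). Of the 6 neighbours of ACKR3, none was higher and 2 were lower: MLPH at 903 kb by -1.26 ± 0.08 (adjusted p = 2.41e-09), and GBX2, whose call was lost under several other settings. Of the 6 neighbours of HTR7, 1 was higher and 2 lower. The lower calls of HECTD2 near HTR7, MIGA1 near PTGFR and LYPLA1 near OPRK1 were also lost under several other settings. That of FUBP1 near PTGFR was lost with the mitochondrial share as a covariate.

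**Figure D5:**
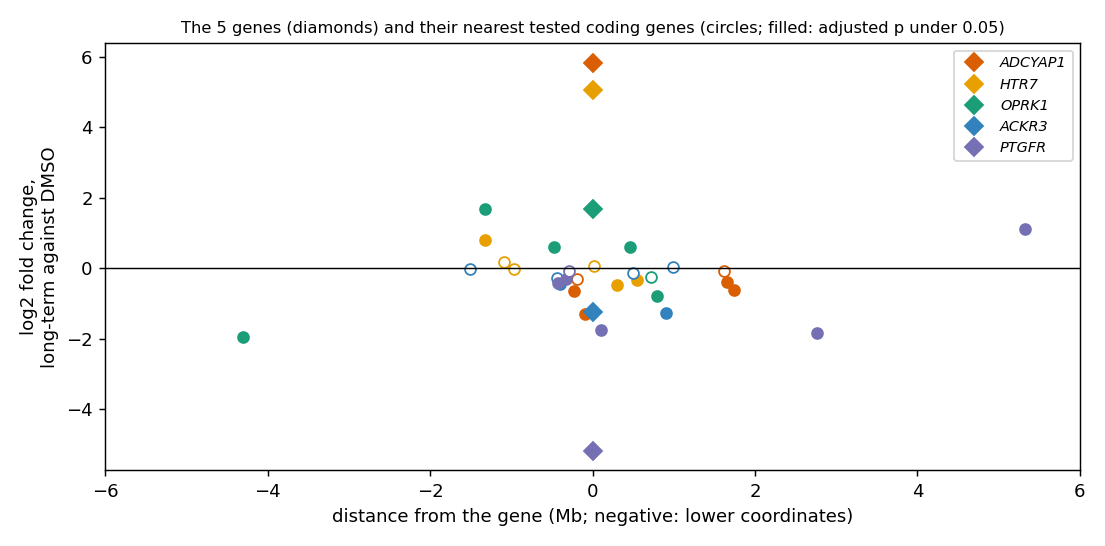
Long-term against DMSO difference (log2 fold change, n = 3 libraries per group) of the 5 genes (diamonds, at distance 0) and of their nearest tested protein-coding genes (circles, filled where the adjusted p was under 0.05) by distance in Mb. All 30 neighbours lie between -1.95 and 1.67. The 5 genes were picked for large changes and lie at 5.83 (ADCYAP1), 5.05 (HTR7), 1.69 (OPRK1), -1.25 (ACKR3) and -5.18 (PTGFR).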

How the data were processed

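RNA of the 16D prostate cancer cell line was measured in 18 libraries of 6 groups, poly(A)-selected, strand-specific and read as single 50 bp reads per the labels' protocols. The authors deposited gene-level TPM. Tools named in the submitters' processing notes are Partek, STAR and RSEM, with GRCh38 (hg38) as the build; versions and settings are not given in the sources used here. Depth is unknown because TPM hold no read totals, so no counting interval is given. Gene positions are from GENCODE release 29, to which 58516 identifiers matched, and promoter windows are from RefSeq.

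Values were transformed to log2(TPM + 1), genes with at least 1 TPM in at least 3 libraries were kept, and limma 3.58.1 (R 4.3.3) was fitted to all libraries with 6 group means, a variance trend, two-sided tests and Benjamini-Hochberg adjustment within each of 6 comparisons. Each p measures the spread between these libraries, which may be technical. The fit was checked on simulated data. Python 3.11.15, numpy 2.4.6, pandas 2.3.3 and matplotlib 3.10.9 did the rest.

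The 5 genes and the 14 partner lists were chosen with earlier results of these data known. Named partners were, per list and comparison, up to 4 called genes with the largest difference, non-overlapping libraries and a mean of at least 2 TPM in the higher group, together with fixed direct partners of each gene. A subset of these is described, and exceptions are stated. The 4 genes most alike were taken per gene. Alternatives tried were no filter or one of 5 TPM, a pseudocount of 0.1, median-of-ratios scaling, rescaling without mitochondrial genes, a fit of only both groups, the mitochondrial share as a covariate, a replicate block and leaving out each library. The deposited fold columns were not used, and the authors' mean columns equalled the group means.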

Additional observations from a re-analysis of the deposited data

Results flagged for a closer look

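ACKR3 went in opposite directions in the timed and long-term groups: its difference from DMSO was 2.03 at 144 h and -1.25 long-term, with every 144 h library above and every long-term library below all DMSO libraries. The gene was chosen for such values, so the difference between the groups was not tested. PLCB4, a partner gene, also turned. It was 0.88 ± 0.13 above DMSO at 144 h and 2.12 on the log2 scale below it long-term. The long-term difference from 144 h was -3.0 ± 0.13, given without a p because PLCB4 was picked here for turning. ADCY9, another partner gene, was also called higher at 144 h (0.51 ± 0.15) and lower long-term (-0.49 ± 0.15). Its call at 144 h was lost without 144 h replicate 1. The long-term group also had the highest mean mitochondrial share, 26.4% ± 3.91 beside 19.4% ± 1.49 in DMSO, though long-term replicate 2, at 22.0%, lay below 1 library each of 96 h and 144 h. With that share as a covariate the long-term ACKR3 difference was -0.94.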

How the results depend on the processing

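No called value of the 5 genes changed direction under any alternative. With a pseudocount of 0.1 the differences at 144 h were -0.23 for ADCYAP1, 0.58 for HTR7 and 3.26 for OPRK1, and long-term against DMSO 8.84, 7.59 and 2.38 for these genes and -7.87 for PTGFR; that scale spreads low values. Median-of-ratios scaling gave 5.95 for ADCYAP1 and 5.17 for HTR7 long-term. Rescaling without mitochondrial genes gave 2.61 for OPRK1 at 144 h and, long-term, 6.26 for ADCYAP1, 5.45 for HTR7, 1.92 for OPRK1 and -5.45 for PTGFR. Fitting the mitochondrial share as a covariate, the long-term values were 5.96, 5.20 and 1.93 for ADCYAP1, HTR7 and OPRK1 and -0.94 for ACKR3, and 53 partner genes were called at 24 h in place of 35; the cause was not tested. A filter of 5 TPM left 81 of 124 partner calls between long-term and 144 h, since fewer genes were tested. Leaving out single libraries moved the long-term difference of ADCYAP1 between 5.71 and 5.93. The partner calls then ranged from 25 to 29 at 24 h (35 with all libraries), 61 to 64 at 48 h, 88 to 96 at 96 h, 112 to 126 at 144 h, 123 to 129 long-term against DMSO and 103 to 134 between long-term and 144 h. Without 24 h replicate 2 the PTGFR difference at 24 h was 0.44 in place of 0.21. With a replicate block, 34, 71, 103, 128 and 132 partner genes were called against DMSO and 125 between long-term and 144 h, none of which is over 1.5 times from the unblocked count. After group means were removed, same-numbered libraries correlated between -0.159 and 0.144, and 8 of 18 libraries correlated best with their own number. Such values cannot show whether the numbers mark shared cultures. Of 286 calls of named partners and neighbours that were checked, 240 held their side of the threshold under every alternative that tested them.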
